A study of Mus musculus with 10 samples.

Results

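Genes of retinoic acid synthesis, breakdown and reception were followed through the RNA of whole kidneys from E13.5 mouse embryos. The 9 genes were taken by symbol and were Aldh1a1, Aldh1a2, Aldh1a3, Rara, Rarb, Rarg, Cyp26a1, Cyp26b1 and Stra6, out of 35663 gene entries, and each symbol stood on 1 entry. The values are FPKM, fragments scaled by the length of the coding sequence and by the depth of the library, in 10 libraries of C57/b6 embryos. The 4 wild-type libraries have the genotype label Wild type, which names neither of the alleles that follow. The 3 Foxd1GC control libraries (genotype label Foxd1-Cre) carried a Cre made from the Foxd1 gene in stromal progenitors, and 3 Ntn1SPKO libraries (genotype label Foxd1-Cre; Ntn1/cc) carried the same Cre with conditional alleles of Ntn1, the gene of the secreted guidance protein netrin-1. By these labels, wild-type kidneys differ from the 6 others by the Foxd1GC allele, which is shared by both of those groups. Whether wild-type or control embryos held a conditional Ntn1 allele is not spelled out. Cre acts in the stroma while the RNA comes from all cells of the kidney.

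Retinoic acid is made from vitamin A in steps. Stra6 is a membrane receptor that takes up retinol from its carrier in blood, the Aldh1a enzymes oxidise retinaldehyde to retinoic acid, and the Cyp26 enzymes break retinoic acid down. Rara, Rarb and Rarg are nuclear receptors that bind DNA at paired half-sites together with a retinoid X receptor. In the developing kidney Aldh1a2 is known as the enzyme of the stroma, and retinoic acid signalling in stromal cells is known to maintain Ret, the receptor through which the ureteric bud is led to branch.

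The members lie on 7 chromosomes of GRCm38 (GENCODE M21 annotation) and are all protein coding. Aldh1a2 is on chromosome 9 from 71215789 to 71296243, Aldh1a1 on chromosome 19 from 20492715 to 20643465 and Aldh1a3 on chromosome 7 from 66390890 to 66427517. Among the receptors, Rara is on chromosome 11 from 98927818 to 98974942, Rarb on chromosome 14 from 16430839 to 16819156 and Rarg on chromosome 15 from 102234938 to 102257517. Cyp26a1 is on chromosome 19 from 37697798 to 37701536, Cyp26b1 on chromosome 6 from 84571414 to 84593908 and Stra6 on chromosome 9 from 58063788 to 58153996. Aldh1a1 is the member whose reads are least certainly its own, because 18.9% of the 31-base words of its coding sequence also occur in Aldh1a7, a near-identical neighbour. No such word was shared with another gene by any of the other 8 members.

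Rarb and Cyp26a1 are textbook targets of the receptors, and their start sites are shown for the receptor-type repeat they hold. Promoter windows (RefSeq, GRCm38.p6, 250 bases before to 50 after a start) matched 8 of the 9 members, all but Aldh1a3, with 16 windows. They were searched on both strands for 2 half-sites (AGGTCA or AGTTCA or GGGTCA or GGTTCA) in the same direction and 1, 2 or 5 bases apart. A 5-base spacing occurred in 1 Rarb window and in the Cyp26a1 window, against 0.0974% of all 32851 windows, and the spacings of 1 and 2 bases (0.222% and 0.268% of all windows) occurred in none of the 16. The 150 bases before each start are given 5′ to 3′ on the gene's strand, with the repeat in capitals. For Rarb they are chr14:16575477-16575626 on the minus strand, and for Cyp26a1, where the repeat reads on the opposite strand, chr19:37697658-37697807 on the plus strand.
Rarb: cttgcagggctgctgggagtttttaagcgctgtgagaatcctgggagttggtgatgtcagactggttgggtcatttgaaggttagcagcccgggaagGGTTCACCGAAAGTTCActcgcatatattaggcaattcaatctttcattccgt
Cyp26a1: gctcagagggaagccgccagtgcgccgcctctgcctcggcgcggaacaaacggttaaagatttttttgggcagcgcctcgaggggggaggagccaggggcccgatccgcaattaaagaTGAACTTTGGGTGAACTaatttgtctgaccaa
The Rarb repeat begins 53 bases before the start and that of Cyp26a1 32 bases before it. A match describes these letters and is not evidence that a receptor sits there. Both genes are described with their levels below, where they sit at opposite ends of the range of variation.

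Depth and libraries were as follows. The FPKM of a library added up to between 795829 and 1002638, and its depth, judged from the steps in low values, was about 26 to 31 M fragments (1 M is 1e6). Ntn1, the deleted gene, was at 16.3, 13.1 and 10.7 FPKM in Ntn1SPKO kidneys, below every control (40.7, 24.2 and 51.4 FPKM). All 7 nephron progenitor, 9 ureteric bud and 11 cortical stroma markers averaged over 0.5 FPKM. So did 7 of 8 skeletal muscle, 6 of 6 erythroid and 4 of 7 liver markers, so passing this level does not by itself bear out the kidney label. Control replicate 3 stood apart from the rest. Its 9 ureteric bud markers summed to 95.1 FPKM, against 204.9 to 243.2 FPKM in the other 9 libraries, and 8 of the 9 were lowest there. Skeletal muscle markers summed to 887.4 FPKM in it and to 15.6 to 193.5 FPKM elsewhere. Of the 14534 genes averaging 0.5 FPKM or more, 24.1% were lowest in this library and 20.7% highest. Among the 9 members, 5 were lowest (Aldh1a1, Aldh1a2, Aldh1a3, Cyp26a1 and Stra6) and 2 highest (Rara and Rarg) in it, so differences from controls are followed by their value without it where it moved them most. Wild-type replicate 3 came next by the share of those genes lowest in it, 18.4%, and had the largest FPKM total (1002638). It held the lowest value of 2 members (Rara and Cyp26b1) and the highest of 2 (Aldh1a1 and Cyp26a1). Transcripts of the Y chromosome were found in 1 of 4 wild-type, 1 of 3 control and 3 of 3 Ntn1SPKO libraries.

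**Figure D1:**
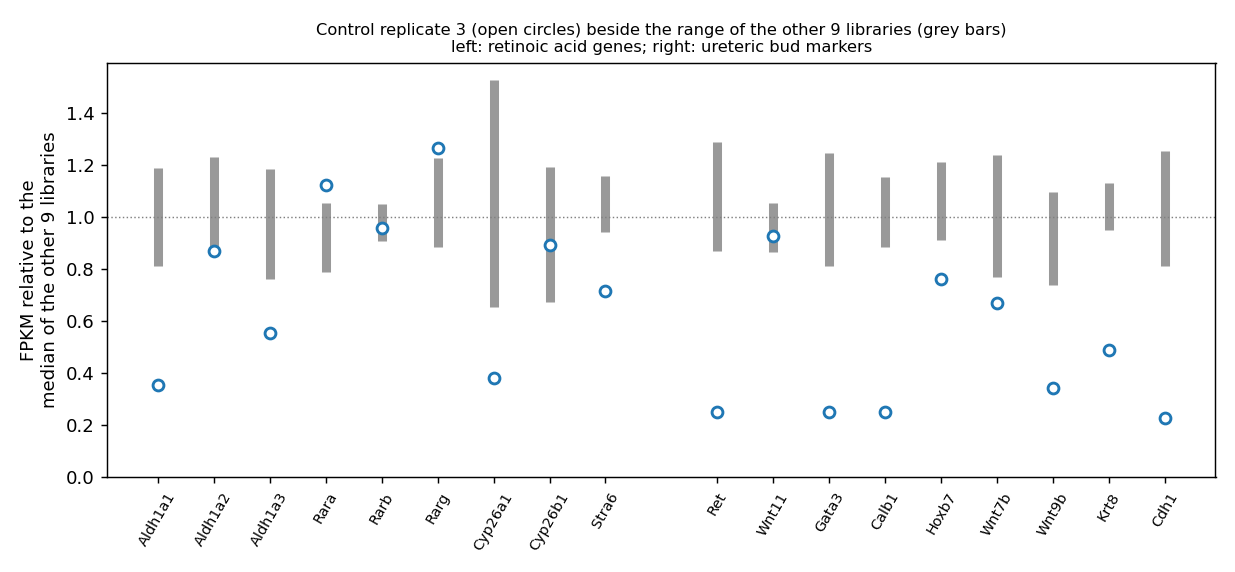
FPKM of each retinoic acid gene (left) and each ureteric bud marker (right) in control replicate 3 (open circles), divided by the median of the other 9 libraries, whose range is the grey bar. Aldh1a1 was at 0.357, Aldh1a3 at 0.556 and Stra6 at 0.717 of that median, and the ureteric markers Ret, Gata3, Calb1 and Cdh1 were at 0.227 to 0.253 of it.

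The 9 genes differed widely in level, with a synthesis enzyme at the top and a degrading enzyme at the bottom. By mean FPKM in wild-type kidneys, which is per length, the order was Aldh1a2 (230.6 ± 19.4, SD, n = 4), Rarb (21.7 ± 1.15), Stra6 (20.1 ± 1.75), Aldh1a3 (16.5 ± 2.47), Rara (16.1 ± 1.95), Rarg (13.3 ± 0.75), Cyp26b1 (6.51 ± 1.30), Aldh1a1 (4.62 ± 0.80) and Cyp26a1 (0.475 ± 0.067). The wild-type values of Rarb and Stra6 overlapped, as did those of Aldh1a3 with Rara, Rara with Rarg, and Cyp26b1 with Aldh1a1. Aldh1a2 stood above all others, Stra6 above Aldh1a3, Rarg above Cyp26b1 and Aldh1a1 above Cyp26a1 with no overlap. Over all 10 libraries Aldh1a2 ranked 528th in level among those 14534 genes, and Cyp26a1 lay below that limit.

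**Figure D2:**
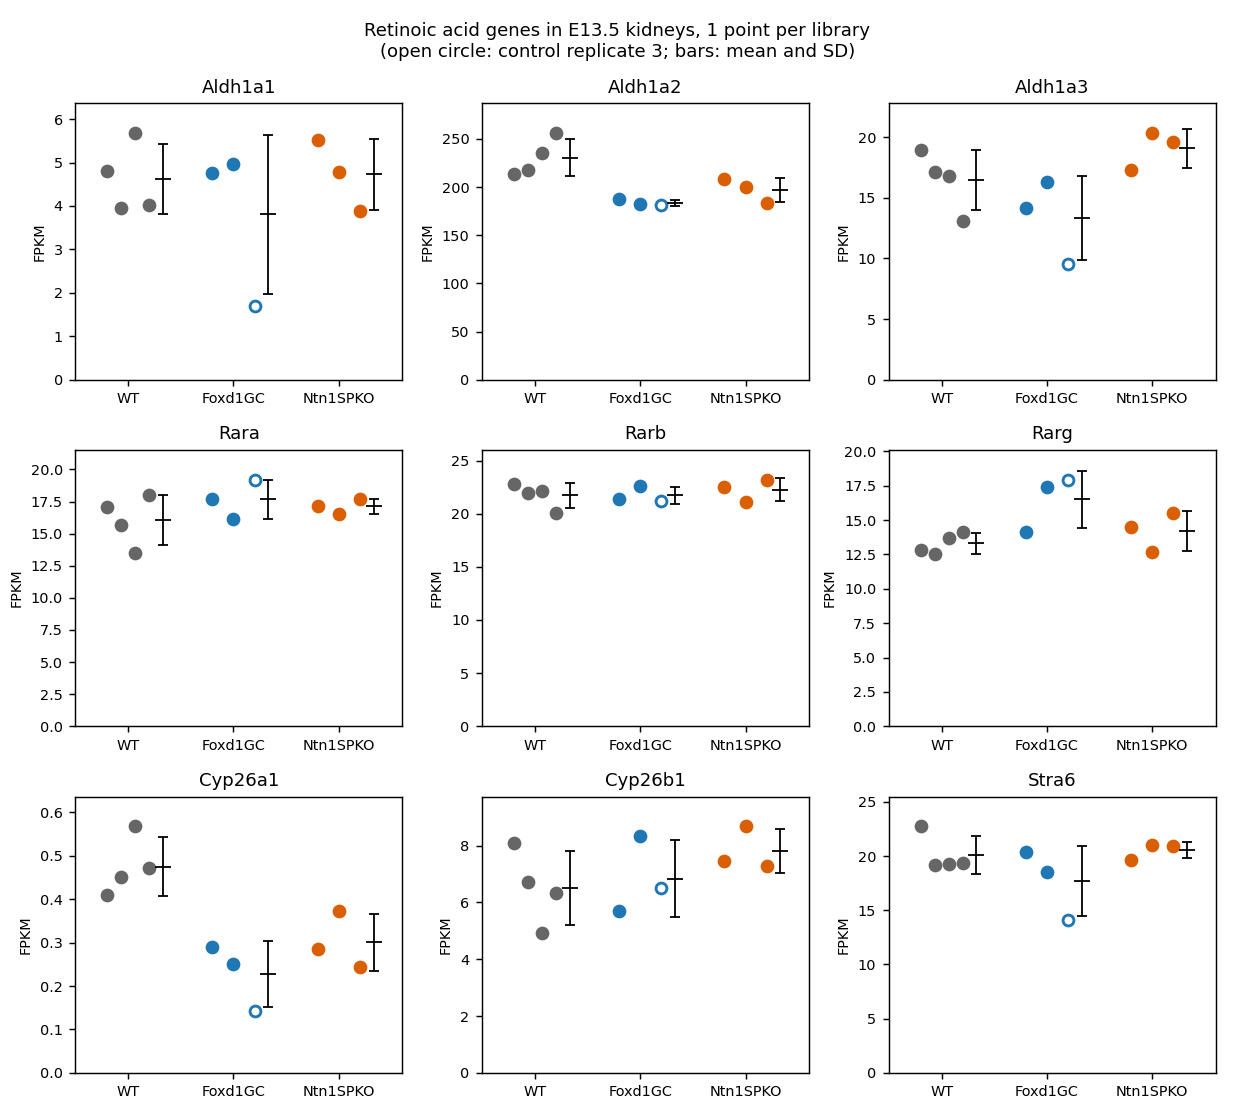
FPKM of the 9 retinoic acid genes in each library, 1 point per library, with the mean and SD of each group as bars and control replicate 3 as an open circle. Aldh1a2 and Cyp26a1 were higher in all 4 wild-type libraries than in all 6 others, and Rarb stayed between 20.1 and 23.2 FPKM throughout. The share of all genes with such a split was not counted.

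No member was called in any of the 3 comparisons. A call needed an adjusted p under 0.1 (limma on log2(FPKM + 0.1), Benjamini-Hochberg over all genes tested) with at least a 2-fold change. Of the 9 members 8 passed the filter, a mean of 0.5 FPKM or more, in each comparison. Calls were rare among all genes too, with 0.055% of 14550 genes in Ntn1SPKO against control, 0.0485% of 14432 in Ntn1SPKO against wild-type and 0.00685% of 14594 in control against wild-type kidneys. Ntn1, the deleted gene, was not called in Ntn1SPKO against control (log2 fold change −1.48, adjusted p = 0.447 by limma). It was not called against wild type either (−1.30, adjusted p = 0.140 by limma). The absence of a call thus does not show that a gene is unchanged. At an unadjusted p under 0.05, 1 of 8 members passed in the first comparison (12.5%, all genes 10.7%), 1 of 8 in the second (12.5%, all genes 5.76%) and 2 of 8 in the third (25%, all genes 7.06%). Groups did not overlap for 1, 1 and 2 of the 8 members, beside 19.9%, 7.1% and 8.09% of all genes. The last 2 comparisons share the wild-type libraries. Median log2 fold changes of the 8 members were 0.15, 0.063 and −0.099, where those of all genes were 0.0067, 0.0034 and −0.0072. Lower RNA per cell and fewer cells of a type cannot be told apart in whole kidneys.

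**Figure D3:**
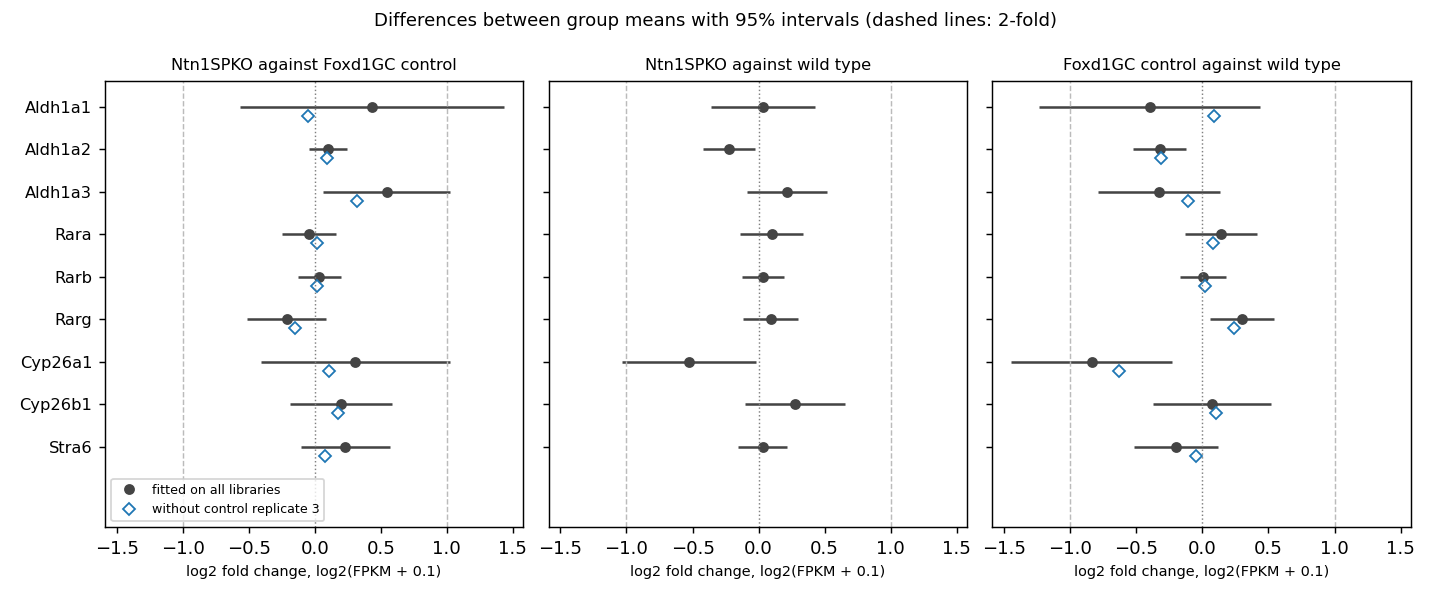
Log2 fold changes of the 9 retinoic acid genes on the log2(FPKM + 0.1) scale in the 3 comparisons, with 95% intervals as lines, 2-fold as dashed lines and, where controls enter, the difference without control replicate 3 as diamonds. The widest interval is that of Aldh1a1, and its difference against controls went from 0.43 to −0.053 without that library.

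Aldh1a2, the main source of retinoic acid in the embryo, was lower in kidneys that carried Foxd1GC than in wild-type kidneys. Its level was 213.9, 217.3, 234.9 and 256.1 FPKM in the 4 wild-type libraries. Control libraries were at 187.4, 182.7 and 180.9 FPKM and Ntn1SPKO libraries at 208.2, 199.7 and 183.8 FPKM. All 6 libraries with the allele lay below all 4 without it, and the controls were the tightest group of the 3. The share of all genes that separate these 6 libraries from the 4 was not counted. The log2 fold change was −0.32 in control against wild-type (standard error 0.085, p = 0.0055, adjusted p = 0.665 by limma; exact permutation p = 0.0286, two-sided, the smallest that 3 against 4 allows) and −0.31 without control replicate 3. For Ntn1SPKO against wild-type it was −0.22 (standard error 0.085, p = 0.0316, adjusted p = 0.783 by limma; exact permutation p = 0.0571). Between Ntn1SPKO and control kidneys the log2 fold change was 0.10 with a 95% interval of −0.046 to 0.25, so that a fold of 0.968 to 1.19 was not told apart from none. Neither difference from wild type passed the adjusted threshold. With every library scaled to the same total the Ntn1SPKO and wild-type groups overlapped (log2 fold change −0.17), and the control and wild-type groups still did not (−0.30). Foxd1, the gene that holds the Cre, was at 24.4 ± 4.39 FPKM (n = 4) in wild-type, 19.95 ± 5.46 (n = 3) in control and 14.6 ± 0.67 (n = 3) in Ntn1SPKO kidneys, and the summed stromal markers reached 1040 to 1293, 1060 to 2245 and 1013 to 1194 FPKM. The part of stromal content in the difference was not tested.

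Aldh1a3, the enzyme known from ureteric epithelium and eye, was the member with the largest fitted difference between Ntn1SPKO and control kidneys. It was measured at 14.2, 16.3 and 9.54 FPKM in controls. In Ntn1SPKO kidneys the levels were 17.3, 20.4 and 19.6 FPKM, above every control, while wild-type libraries at 18.96, 17.2, 16.8 and 13.1 FPKM overlapped both groups. The difference from controls was 0.55 on the log2 scale (standard error 0.20, 95% interval 0.065 to 1.03, p = 0.0318, adjusted p = 0.447 by limma; exact permutation p = 0.1, the smallest that 3 against 3 allows). Without control replicate 3, where the ureteric bud markers were low, it was 0.32, and with Y-chromosome transcripts as a covariate 0.22, a fit in which replicate 2 is the 1 control with such transcripts beside 3 Ntn1SPKO libraries that all have them. The ureteric markers summed to 230.9 to 243.2 FPKM in Ntn1SPKO libraries. In controls they summed to 95.1 to 226.5 FPKM, and to at least 204.9 FPKM without replicate 3, so every control lay below every Ntn1SPKO library with or without it. Wild-type sums were 216.8 to 235.4 FPKM, and the part of ureteric content in the Aldh1a3 difference was not tested. Against wild type the log2 fold change was 0.22 (standard error 0.13, adjusted p = 0.947 by limma).

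Aldh1a1, the enzyme of the family with the lowest level here, varied most through 1 library. Wild-type libraries were at 4.79, 3.96, 5.68 and 4.03 FPKM, and Ntn1SPKO libraries at 5.53, 4.77 and 3.88 FPKM. Controls were at 4.75, 4.97 and 1.70 FPKM, the last in replicate 3, and without it the 3 groups lay within the same range. The log2 fold change of Ntn1SPKO against control was 0.43 with a 95% interval of −0.56 to 1.43 (adjusted p = 0.622 by limma), so a fold between 0.676 and 2.70 could not be told from none. Aldh1a7, with which it shares sequence, was itself at 0.710 FPKM in control replicate 3, the lowest of its 10 values, which reached 2.12 FPKM.

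The make-up of the family was similar in every library. Aldh1a2 supplied 88.7% to 94.1% of the summed Aldh1a FPKM, Aldh1a3 4.79% to 9.46% and Aldh1a1 0.886% to 2.44%. Aldh1a3 made up 8.66% ± 1.05 (SD, n = 3) of the sum in Ntn1SPKO, 6.61% ± 1.53 (n = 3) in control and 6.63% ± 1.36 (n = 4) in wild-type kidneys, and the 3 ranges overlapped. The sum itself was 251.7 ± 17.0 FPKM in wild-type, 200.8 ± 7.55 in control and 221.0 ± 12.3 in Ntn1SPKO kidneys, an order set by Aldh1a2.

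**Figure D4:**
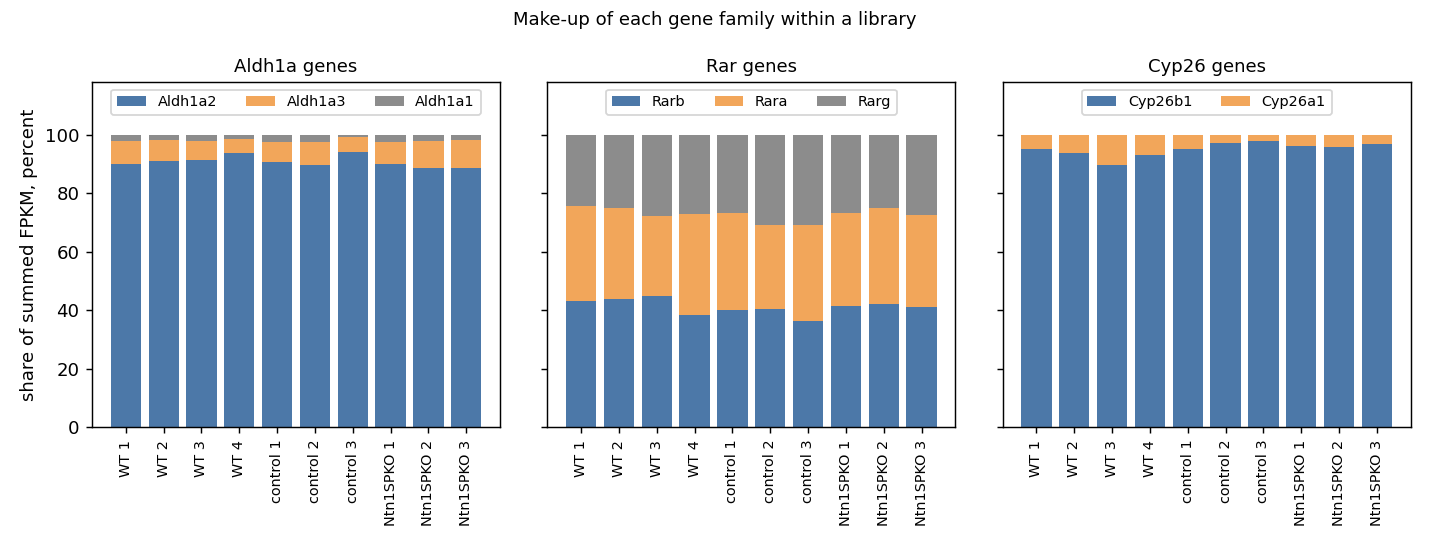
Share of the summed FPKM of the Aldh1a, Rar and Cyp26 genes that each gene took, as stacked bars in percent, 1 bar per library. Aldh1a2 took at least 88.7% of its family and Cyp26b1 at least 89.6% of its own in every library, while the 3 receptors divided theirs more evenly.

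Stra6, the retinol receptor, held a like level in all groups apart from control replicate 3. Wild-type libraries were at 22.8, 19.2, 19.2 and 19.3 FPKM, controls at 20.4, 18.6 and 14.1 FPKM, and Ntn1SPKO libraries at 19.7, 21.0 and 20.9 FPKM. The log2 fold change of Ntn1SPKO against control was 0.23 (standard error 0.14, adjusted p = 0.484 by limma) and 0.077 without that library. Against wild type it was 0.032, with a 95% interval of −0.15 to 0.22.

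All 3 retinoic acid receptors were expressed, and Rarb gave the steadiest values of the 9 members. Rarb, which is itself a target of retinoic acid, was at 22.8, 21.97, 22.1 and 20.1 FPKM in wild-type, 21.4, 22.6 and 21.2 FPKM in control and 22.5, 21.1 and 23.2 FPKM in Ntn1SPKO libraries. Its coefficient of variation over the 10 libraries was 4.33%, and only 2.07% of the 14534 genes had a lower one (median of all 13.2%). Intervals of its log2 fold change ran from −0.13 to 0.20 in Ntn1SPKO against control and from −0.12 to 0.20 against wild type. A change of more than 1.15-fold in either direction thus lay outside both intervals.

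Rara, the broadly expressed receptor, was at 17.1, 15.7, 13.502 and 18.0 FPKM in wild-type, 17.7, 16.1 and 19.2 FPKM in control and 17.1, 16.5 and 17.7 FPKM in Ntn1SPKO libraries. These groups overlapped in all 3 comparisons, with log2 fold changes of −0.041, 0.099 and 0.14 and adjusted p of 0.831, 0.947 and 0.719 by limma. Rarg showed more spread among controls. It was at 12.8, 12.5, 13.7 and 14.2 FPKM in wild-type, 14.2, 17.4 and 17.9 FPKM in control and 14.5, 12.6 and 15.5 FPKM in Ntn1SPKO libraries. Control and wild-type values met at 14.2 FPKM and were apart only in the fourth decimal there (14.1562 and 14.1561 FPKM), and with the same total per library these groups overlapped. The log2 fold change in control against wild-type kidneys was 0.30 (standard error 0.10, p = 0.0212, adjusted p = 0.665 by limma; exact permutation p = 0.0286, the smallest possible) and 0.24 without control replicate 3. Against controls Ntn1SPKO kidneys had a log2 fold change of −0.21 (95% interval −0.51 to 0.087, adjusted p = 0.477 by limma), and −0.15 without control replicate 3.

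Within a library, Rarb held 36.3% to 44.8%, Rara 27.4% to 34.4% and Rarg 24.4% to 30.97% of the summed Rar FPKM. The receptors kept that order in the group means of all 3 groups. The summed Rar FPKM was 51.1 ± 1.63 in wild-type, 55.9 ± 2.55 in control and 53.6 ± 3.09 in Ntn1SPKO kidneys.

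Of the degrading enzymes, Cyp26b1 had the higher level. It was at 8.07, 6.73, 4.91 and 6.32 FPKM in wild-type, 5.68, 8.34 and 6.50 FPKM in control and 7.46, 8.68 and 7.28 FPKM in Ntn1SPKO libraries. The groups overlapped in every comparison, and the log2 fold change of Ntn1SPKO was 0.20 against control (standard error 0.16, adjusted p = 0.568 by limma) and 0.28 against wild type (standard error 0.16, adjusted p = 0.947 by limma). A fold of up to 1.502 against control and 1.58 against wild type remained inside these intervals. Single libraries moved both values, from 0.079 without control replicate 1 to 0.35 without control replicate 2, and to 0.15 without wild-type replicate 3.

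Cyp26a1, a degrading enzyme that retinoic acid is known to induce and whose promoter repeat is printed above, was near the floor of detection. It was at 0.409, 0.452, 0.568 and 0.471 FPKM in wild-type libraries. Controls were at 0.289, 0.250 and 0.142 FPKM and Ntn1SPKO libraries at 0.286, 0.372 and 0.243 FPKM. As with Aldh1a2, all 6 libraries with Foxd1GC were below all 4 wild-type libraries, a split whose share over all genes was not counted. At the rough depth these levels are 19 to 25 fragments in a wild-type library, 6 to 13 in a control and 9 to 16 in an Ntn1SPKO library. Fitted without the filter, the log2 fold change was −0.84 in control against wild-type (standard error 0.26, p = 0.0139, adjusted p = 0.749 by limma; exact permutation p = 0.0286) and −0.63 without control replicate 3. For Ntn1SPKO against wild-type it was −0.53 (standard error 0.22, p = 0.0435, adjusted p = 0.868 by limma; exact permutation p = 0.0286, the smallest possible). Between Ntn1SPKO and control kidneys the groups overlapped (log2 fold change 0.31, 95% interval −0.41 to 1.02), and without control replicate 3 the difference was 0.10. At such levels the value depends on the added constant. With 1 FPKM added the log2 fold change from wild type was −0.27 in controls and −0.18 in Ntn1SPKO kidneys, and with 0.01 FPKM added −1.08 and −0.65.

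Set against each other, the summed Aldh1a FPKM was 37.1 ± 8.28 times (SD, n = 4) the summed Cyp26 FPKM in wild-type, 29.1 ± 5.41 times (n = 3) in control and 27.4 ± 2.50 times (n = 3) in Ntn1SPKO kidneys. Ranges of 28.0 to 47.0, 23.7 to 34.6 and 24.8 to 29.8 overlapped. These ratios compare RNA per length and are not enzyme activities.

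The rest of the pathway was followed through 46 further genes, of which 34 passed the filter in each comparison. None was called. In Ntn1SPKO against control kidneys 2 of the 34 had an unadjusted p under 0.05 (5.88%, all genes 10.7%), 1 higher and 1 lower, and the groups of 6 did not overlap (17.6%, all genes 19.9%). The 6 include Adh4, which passed the filter through 1 control library, as given below. Against wild type, 3 of 34 had such a p in Ntn1SPKO kidneys, 2 higher and 1 lower (8.82%, all genes 5.76%) and 1 of 34 in control kidneys (2.94%, all genes 7.06%). Their median log2 fold changes were −0.067, −0.017 and 0.088 in the 3 comparisons. Retinol supply and interconversion had 11 of 19 genes tested, with a median of −0.21 in Ntn1SPKO against control, receptor partners and cofactors 10 of 10 with 0.046, and response genes 14 of 18 with −0.10.

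Among supply genes, Rbp4, the retinol carrier of blood, was at 1.09, 1.09 and 0.82 FPKM in Ntn1SPKO and at 2.04, 1.35 and 1.65 FPKM in control libraries, with no overlap. Its log2 fold change was −0.69 with all libraries and without control replicate 3 (standard error 0.24, adjusted p = 0.447 by limma). Wild-type values of 1.97, 0.82, 0.90 and 1.06 FPKM spanned both groups. Liver markers summed to 4.05 to 14.2 FPKM in Ntn1SPKO, 12.3 to 31.1 FPKM in control and 7.29 to 23.5 FPKM in wild-type libraries, and their part was not tested. Ttr, a liver-made partner of Rbp4 that was below the filter, did not overlap either, with 0.036, 0.144 and 0.280 FPKM in Ntn1SPKO and 0.695, 0.350 and 0.769 FPKM in control libraries. It is also 1 of the 7 liver markers summed above. Of the other genes below the filter, Stra6l was lower (log2 fold change −0.81) and Bco2 higher (0.34) in Ntn1SPKO than in control libraries, also with no overlap. Stra6l was at 0.057 to 0.094 FPKM in Ntn1SPKO, 0.197 to 0.235 FPKM in control and 0.101 to 0.295 FPKM in wild-type libraries. Bco2 was at 0.036 to 0.060, 0.018 to 0.020 and 0.018 to 0.104 FPKM, so wild-type values overlapped both groups. These levels are near the floor of detection. With no filter, the Ntn1SPKO and control groups of 3561 of 22796 genes did not overlap. Adh5, a widely expressed alcohol dehydrogenase, was at 132.8, 126.4 and 127.4 FPKM in Ntn1SPKO and 107.3, 121.1 and 113.0 FPKM in control libraries (log2 fold change 0.18, standard error 0.062, adjusted p = 0.447 by limma). Adh1, another alcohol dehydrogenase, did not overlap either (log2 fold change −0.21, adjusted p = 0.472 by limma). Wild-type libraries overlapped both groups for Adh5 (122.3, 120.6, 151.6 and 110.6 FPKM) and for Adh1 (3.62, 3.46, 4.72 and 2.96 FPKM). Adh4 passed the filter through control replicate 3, which was at 3.24 FPKM against at most 0.17 FPKM in the other 9 libraries. Its log2 fold change of Ntn1SPKO against control was −2.01 with that library and −0.63 without it. The other controls were at 0.077 and 0.099 FPKM and the Ntn1SPKO libraries at 0 to 0.035 FPKM, all near the floor of detection. Wild-type libraries at 0.030, 0.170, 0.030 and 0 FPKM overlapped both groups. Of the 46 genes 12 averaged under 0.5 FPKM over the 10 libraries, among them Lrat, which stores retinol as esters, the carotenoid-cleaving Bco1 and Bco2, and Cyp26c1, the further degrading enzyme.

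Crabp1, a carrier of retinoic acid inside cells, was lower in Ntn1SPKO than in wild-type kidneys. It was at 73.1, 84.9 and 93.0 FPKM in Ntn1SPKO libraries and at 113.4, 98.1, 138.3 and 111.9 FPKM in wild-type libraries, with no overlap (log2 fold change −0.46, standard error 0.13, p = 0.0083, adjusted p = 0.529 by limma; exact permutation p = 0.0571). Controls ran from 77.4 to 250.7 FPKM, the highest in replicate 3. Skeletal muscle markers moved alongside, with sums of 15.6 to 67.0 FPKM in Ntn1SPKO, 104.9 to 188.9 FPKM in wild-type and 59.4 to 887.4 FPKM in control libraries, and their part in the Crabp1 difference was not tested. Rxrg, a retinoid X receptor known from muscle, was likewise highest in that library at 4.72 FPKM, where the muscle markers were high, and at 0.78 to 1.95 FPKM elsewhere.

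Of the response genes, Ret and Ecm1 had their 3 highest values in the Ntn1SPKO libraries. Ret was at 18.5, 20.9 and 19.8 FPKM in Ntn1SPKO, 16.0, 16.2, 14.1 and 17.2 FPKM in wild-type and 16.0, 16.1 and 4.09 FPKM in control libraries. Its log2 fold change against wild type was 0.31 (standard error 0.085, p = 0.0070, adjusted p = 0.503 by limma; exact permutation p = 0.0286), and against controls 0.94, or 0.29 without control replicate 3. Ret is also 1 of the 9 ureteric bud markers, whose sum was likewise above every control in the Ntn1SPKO libraries, and the part of ureteric content was not tested. Ecm1, an extracellular matrix protein reported as a stromal signal to the ureteric bud, was at 75.0, 74.6 and 75.7 FPKM in Ntn1SPKO, 64.0, 69.1, 52.1 and 49.6 FPKM in wild-type and 52.4, 70.6 and 66.9 FPKM in control libraries. The log2 fold changes of Ecm1 were 0.37 against wild type (standard error 0.12, p = 0.0171, adjusted p = 0.710 by limma; exact permutation p = 0.0571) and 0.26 against control (standard error 0.12, adjusted p = 0.447 by limma). Neither gene was called.

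Genes whose levels ran most like each member over the 10 libraries were found by Pearson's r of log2(FPKM + 0.1) among 13044 protein-coding genes, as a description. Libraries of 3 groups and control replicate 3 are shared by every such pair, and the highest of so many values is large by selection. For Aldh1a1 they were Spint1 (r = 0.9753, 0.902 without control replicate 3), Ap3m1 and Mal2, for Aldh1a3 Notum (0.963, 0.902 without it), Wbp11 and Rasgef1b, and for Stra6 Sin3a (0.951, 0.787 without it), Gcnt3 and Rbm28. For Aldh1a2 they included Misp (0.889) and Tor1aip1 (0.870). Rara ran most like Zfp512b (0.981), Mmp14 and 2700081O15Rik, Rarb most like Gap43 (0.923), Ppp1r3c and Nsun6, Rarg most like Slc39a11 (0.936), Ndel1 and C8g, and Cyp26b1 most like D230025D16Rik (0.918), Numb and Cck.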

How the data were processed

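Whole kidneys of E13.5 mouse embryos gave 4 wild-type, 3 Foxd1GC control and 3 Ntn1SPKO libraries, grouped by their genotype labels, which do not say whether libraries came from separate embryos. P-values measure the spread between these libraries. The authors estimated transcripts with Salmon against Ensembl GRCm38 coding sequences and deposited FPKM, so counts were not used here. All 10 columns mapped to a sample. On the log2(FPKM + 0.1) scale, limma 3.58.1 (R 4.3.3) tested genes that averaged 0.5 FPKM or more in the libraries compared (eBayes with intensity trend, Benjamini-Hochberg), and single members by exact permutation of the absolute difference (scipy 1.17.1). In simulated data for Ntn1SPKO against control (14490 genes), 186 of 200 genes changed by a log2 of 2 were called, with 10 unchanged ones. Each simulated gene took its spread from the 3 Ntn1SPKO libraries, so the spread among controls, replicate 3 included, was left out. The share called therefore does not carry over to the real comparison, where Ntn1 itself was not called. Calls needed an adjusted p under 0.1 and a fold of 2. Depth was estimated from coding lengths and is rough.

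Members and lists were chosen with earlier results of these data known. Other retinoid genes were named where Ntn1SPKO and control groups did not overlap or a log2 fold change reached 0.5 in any comparison, among genes that passed the filter. Ttr, Stra6l and Bco2 were added after their values were seen. For each member averaging 0.5 FPKM or more the 3 most similar genes were named, of which 1 is not reported here. Alternatives were pseudocounts of 1 and 0.01, no filter, other scalings, no intensity trend, 1 fit of all 10 libraries, a replicate block, embryo sex as a covariate and leaving out each library.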

Additional observations from a re-analysis of the deposited data

Results flagged for a closer look

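Stra6 in wild-type kidneys had 1 value far from the others. Replicate 1 was at 22.8 FPKM and the nearest of the other 3 at 19.3 FPKM, a gap of 0.966 of the group's range, past Dixon's 95% critical value for 4 samples. It was the 1 such result among 17 genes examined in the wild-type group, and chance gives about 1 in 20.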

How the results depend on the processing

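The count of members called was 0 in the 3 comparisons under every alternative run, and 385 of 405 recomputed member log2 fold changes kept their direction. Members at an unadjusted p under 0.05 numbered 1 in Ntn1SPKO against control (all genes 10.7%) and 0 with embryo sex as a covariate (all genes 3.55%). Against wild type they numbered 1 (all genes 5.76%). They became 0 at the same total per library (all genes 4.3%), with quantile normalization (5.76%) and with the replicate block (5.64%). With no filter (all genes 5.71%) and with embryo sex (30.1%) they became 2. Leaving out 1 library gave 0 to 3, 0 to 2 and, in control against wild type (2 in the full fit), 1 to 2. In Ntn1SPKO against control the 3 came without Foxd1GC control replicate 1 (all genes 7.08%) and the 0 without Ntn1SPKO replicate 2 (5.77%). Against wild type the 2 came without wild-type replicate 1 (all genes 5.24%). With 1 library left out, members whose groups did not overlap numbered 1 to 4, 1 to 4 and 2 to 3. In Ntn1SPKO against control the 4 came without Foxd1GC control replicate 1, where 4126 of 14511 genes did not overlap. Against wild type the 4 came without wild-type replicate 1 (1579 of 14407 genes). In control against wild type the 3 came without wild-type replicate 4 (1983 of 14614 genes) or Foxd1GC control replicate 1 (1845 of 14581 genes). In Ntn1SPKO against wild type the count of such members was 2 with no filter (1439 of 23003 genes) and 0 under either rescaling. It was 1 under either in control against wild type. Of other retinoid genes with such a p, Ntn1SPKO against control had 4 with no filter, 1 with no intensity trend or all 10 libraries in one fit, 0 with embryo sex and 0 to 14 without 1 library, with 14 reached without Foxd1GC control replicate 2, where 23.5% of all genes had such a p. Against wild type it had 1 with all 10 libraries, 19 with embryo sex, where 30.1% of all genes had such a p, and 3 to 8 without 1 library, with 8 without wild-type replicate 3. Control against wild type had 0 at the same total or with no intensity trend, 2 with all 10 libraries and 0 to 5 without 1 library, with 5 without Foxd1GC control replicate 2, where 15.6% of all genes had such a p. The cause was not tested.

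Replicate numbers did not pair the libraries (correlations of same-numbered deviations −0.0471 to 0.0755). With the replicate block, other retinoid genes with such a p numbered 5 in Ntn1SPKO against control and 4 in control against wild type, and Ntn1SPKO against wild type had log2 fold changes of −0.024 for Aldh1a1 and −0.0014 for Rarb, and control against wild type −0.036 for Rarb, all reversed in sign from near 0. Embryo sex, a term that rests on 1 library of the other group in each comparison with Ntn1SPKO (control replicate 2 or wild-type replicate 3), reversed Aldh1a1 (−0.085), Rara (0.087), Rarb (−0.025) and Cyp26b1 (−0.098) in Ntn1SPKO against control, Aldh1a1 (−0.27) against wild type and Rarb (−0.0034) in control against wild type. Leaving out 1 library moved Ntn1SPKO against control from −0.053 to 0.69 for Aldh1a1 and −0.11 to 0.021 for Rara, Ntn1SPKO against wild type from −0.083 to 0.17 for Aldh1a1 and −0.0014 to 0.073 for Rarb, and control against wild type from −0.66 to 0.087 for Aldh1a1, −0.036 to 0.025 for Rarb and −0.076 to 0.20 for Cyp26b1. For Cyp26b1 against wild type, embryo sex gave 0.65 in Ntn1SPKO kidneys. Cyp26a1, at a few fragments per library, is limited by depth, and 3 libraries against 3 cannot give an exact p below 0.1.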

Other observations

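The ratio of Aldh1a2 to Foxd1 FPKM in the same library was 12.9 to 14.6 in Ntn1SPKO, 7.08 to 12.5 in control and 8.35 to 10.95 in wild-type libraries, with no overlap between Ntn1SPKO and either other group. Foxd1, whose locus holds the Cre, was at 14.2 to 15.4 FPKM in Ntn1SPKO, 14.6 to 25.6 FPKM in control and 21.3 to 30.7 FPKM in wild-type libraries, and its log2 fold change in Ntn1SPKO against wild type was −0.72, while that of Aldh1a2 was −0.22. By the paper's account, Foxd1GC comes with the loss of a Foxd1 allele. The Foxd1 term of the ratio therefore differs by design between carriers and wild type. The ratio was not tested, and the share of all genes whose ratio to Foxd1 separates the groups was not counted.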
